A study of Homo sapiens with 18 samples.

Results

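The genes of the human mitochondrial genome were followed in 3 high-grade serous ovarian cancer cell lines, Kuramochi, OVCAR4 and OVCAR8, after growth on a 3D omentum culture or on plastic. The members were every gene on the mitochondrial chromosome, found by symbols that start with MT-, and made up 37 of the 58288 gene IDs in each library, with 13 mRNAs, 2 rRNAs and 22 tRNAs. The members were chosen by their chromosome, but the set was taken up with earlier results of these data known, among them the lower MT-ATP8 level in OVCAR8 on 3D. All lines carried GFP. For the 3D groups the cells were placed on a culture of primary human omental fibroblasts in collagen I under a layer of mesothelial cells, which had grown for 24 h, and were sorted as GFP-positive cells after 48 h. The plastic groups were grown alone and passed through the sorter in the same way. Each of the 6 groups (Kuramochi, OVCAR4 and OVCAR8, each on 3D and on plastic) held 3 libraries, from 3 independent experiments per line according to the methods, and these are named by their replicate numbers, 2, 4 and 8 in Kuramochi, 42, 4 and 6 in the OVCAR4 groups, and 4, 61 and 62 in OVCAR8. Passages were 35 to 45 for Kuramochi, 45 to 55 for OVCAR4 and 30 to 40 for OVCAR8. Each line is a single tumor-derived line, and the omental cells remain part of what a 3D culture holds until the sort.

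The mitochondrial genome is a small circle of DNA that is copied many times per cell and codes for core subunits of the respiratory chain (complexes I, III and IV) and of ATP synthase (complex V), and for the rRNAs and tRNAs of the mitochondrial ribosome's own translation system. Both strands are transcribed by the polymerase POLRMT into long RNAs that hold many genes. The H-strand transcript starts just ahead of MT-TF, runs through both rRNAs and then 12 of the mRNAs, while the L-strand transcript carries MT-ND6 and 8 of the tRNAs. Enzymes that cut at both ends of each tRNA release the rRNAs and mRNAs between them, and most of these then receive short poly(A) tails. The libraries were made by poly(A) selection, so a count measures transcripts that carried an A tail or a stretch of A, and mature and unprocessed forms of a gene cannot be told apart in it.

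The sequences at which the values below change direction, and those where 2 genes share bases, are given here from the GRCh38 mitochondrial chromosome with GENCODE 44 positions. The files used GENCODE 25, and all 37 IDs and versions matched. The tRNA genes are 59 to 75 bases long. The first gene of the H-strand transcript is MT-TF at chrM:577-647 on the plus strand, the tRNA for phenylalanine, which ends on the base before MT-RNR1.
MT-TF: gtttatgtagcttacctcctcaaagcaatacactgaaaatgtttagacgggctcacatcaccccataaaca
MT-TV, the tRNA for valine at chrM:1602-1670 on the plus strand, lies between the 2 rRNA genes with no base to spare on either side.
MT-TV: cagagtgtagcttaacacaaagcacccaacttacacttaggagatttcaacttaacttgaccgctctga
The third stretch, chrM:3200-3336 on the plus strand, runs from the last bases of MT-RNR2 through MT-TL1 (in capitals), the tRNA for leucine (UUR), into MT-ND1. MT-TL1 is also known as the site that the transcription terminator MTERF1 binds.
MT-RNR2/MT-TL1/MT-ND1 junction: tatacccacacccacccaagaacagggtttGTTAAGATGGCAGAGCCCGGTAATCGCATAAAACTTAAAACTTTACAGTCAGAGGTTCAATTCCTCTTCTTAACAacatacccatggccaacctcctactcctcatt
MT-ATP8 at chrM:8366-8572 on the plus strand shares its last 46 bases (in capitals) with MT-ATP6, so that counts of this pair are uncertain.
MT-ATP8: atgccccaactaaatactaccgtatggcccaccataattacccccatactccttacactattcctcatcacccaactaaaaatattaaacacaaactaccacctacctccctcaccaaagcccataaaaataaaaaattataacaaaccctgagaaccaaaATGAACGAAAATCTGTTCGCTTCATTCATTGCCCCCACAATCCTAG
MT-ND4L and MT-ND4 share 7 bases (in capitals), shown with their flanks at chrM:10720-10806 on the plus strand.
MT-ND4L/MT-ND4 junction: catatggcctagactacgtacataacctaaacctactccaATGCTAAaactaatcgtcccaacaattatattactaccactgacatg
MT-TP at chrM:15956-16023 on the minus strand, the tRNA for proline, is the first gene of the L-strand transcript and is printed 5′ to 3′ as transcribed.
MT-TP: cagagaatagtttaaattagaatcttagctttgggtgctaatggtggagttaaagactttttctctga

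Libraries held 28415048 to 43142540 counts (median 33980300). Levels are given in CPM, counts per 1000000 counts of the TMM-adjusted library total, and fold changes and adjusted p-values come from edgeR's quasi-likelihood test fitted to 22023 genes. Of 7 markers of ovarian cancer epithelium, PAX8 (55.7 to 509 CPM), EPCAM and 3 keratin genes had counts in every library, while MUC16 was at 0 in the OVCAR8 plastic libraries and in OVCAR8 3D replicate 4, and WT1 was at 0 to 1.16 CPM in OVCAR4 and OVCAR8. Markers of omental fibroblasts (9 genes) summed to 43.1, 1520 and 921 CPM in OVCAR8 3D replicates 4, 61 and 62, against 25.5 to 31.5 CPM on plastic, nearly all of it PDGFRB (25.3 to 31.2 CPM), and to 81.0, 695 and 682 CPM in OVCAR4 3D replicates 42, 4 and 6, against 3.08 to 3.55 CPM. In Kuramochi the sums were 519 to 994 CPM on 3D and 333 to 434 CPM on plastic, where COL3A1 and THY1 made up much of them. DCN and POSTN, both fibroblast genes, had no count in any plastic library, and all 9 markers had counts in every 3D library. Sums of 7 mesothelial markers were 207 to 251 CPM on 3D and 166 to 180 CPM on plastic in OVCAR8, with overlapping ranges in Kuramochi and OVCAR4, where MSLN and UPK3B made up most of the sums. Of the 6 mesothelial markers tested, 4 were called higher on 3D in Kuramochi (1 lower), 4 in OVCAR4 and 2 in OVCAR8. HP in Kuramochi was at 5.50 to 6.35 CPM on 3D and 0 to 0.0293 CPM on plastic, but stayed at 0 to 0.187 CPM in OVCAR4 and OVCAR8. UPK3B in Kuramochi went the other way, with 13.3, 27.0 and 30.3 CPM on 3D and 28.5, 79.5 and 63.5 CPM on plastic. CD68, read here as a leukocyte marker, was called higher on 3D in all 3 lines. It was at 81.7 to 94.4 CPM in OVCAR8 3D and 20.0 to 22.6 CPM on its plastic. In OVCAR4 it was at 21.5 to 35.1 CPM on 3D and 9.47 to 17.3 CPM on plastic. Kuramochi had 2.22 to 4.88 CPM on 3D and 1.32 to 2.66 CPM on plastic. PTPRC stayed at 0 to 0.185 CPM in all libraries. OVCAR8 3D replicates 61 and 62 (chi-square per degree of freedom 2.75), OVCAR8 plastic 4 and 62 (3.12) and OVCAR4 3D 4 and 6 (1.98) were much closer to each other than other pairs of replicates (9.43 to 114), still beyond counting noise, and were kept as separate samples.

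Mitochondrial transcripts took 4.64 ± 0.403% of the counts of Kuramochi on 3D and 4.70 ± 0.210% on plastic (SD, n = 3 in each group here and below). In OVCAR4 the shares were 7.15 ± 0.311% and 7.01 ± 0.556%. In OVCAR8 the 3D share was 1.18 ± 0.254% against 2.15 ± 0.126%, a ratio of 0.549, and the 3 libraries of each group did not overlap (0.895 to 1.38% against 2.04 to 2.29%). The change in OVCAR8 differed by transcript class. Its 13 mRNAs went from 1.93 ± 0.127% of counts on plastic to 0.322 ± 0.0393% on 3D, whereas its 2 rRNAs went from 0.213 ± 0.00330% to 0.822 ± 0.277%. The 22 tRNAs, a trace class in these libraries, went from 0.0141 ± 0.000199% to 0.0376 ± 0.00863%, most of it MT-TF and MT-TV on 3D. The 95% Wilson interval of a share in a single library extended by at most 0.00839 percentage points for the mRNAs, 0.00379 for the rRNAs and 0.000687 for the tRNAs, which covers counting error only. In bulk samples, fewer mitochondria per cell and less RNA per mitochondrion cannot be told apart.

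**Figure D1:**
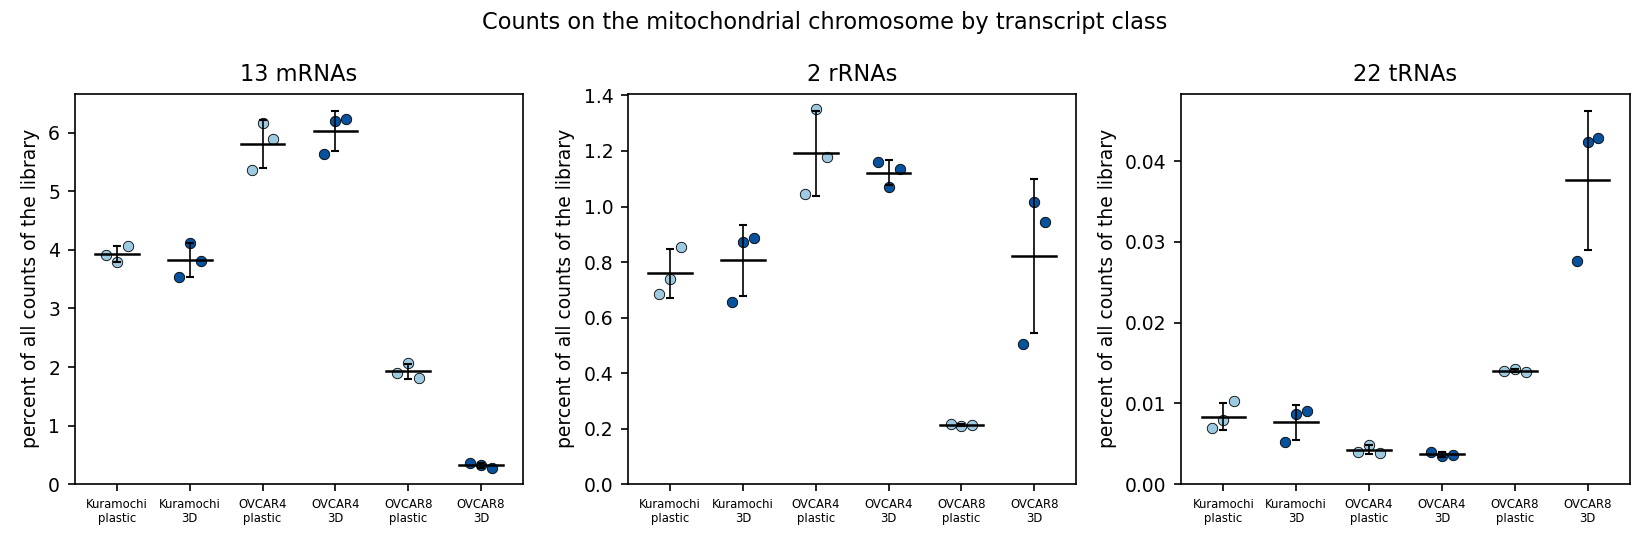
Share of each library's counts on the mitochondrial mRNAs, rRNAs and tRNAs (y axis, percent of all counts) in the 6 groups (x axis). Each point is a library, the bar is the mean and the whisker 1 SD (n = 3); in OVCAR8 the mRNA share is lower on 3D (0.283 to 0.362%) than on plastic (1.82 to 2.07%), while the rRNA share is higher (0.506 to 1.02% against 0.210 to 0.216%).

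In OVCAR8, 35 of the 36 members tested were called between 3D and plastic, 4 higher and 31 lower on 3D, where 10.8% of all genes tested were called (7.51% higher, 3.32% lower). The median log2 fold change of all 36 was -3.19, with 4 tRNAs of 3 or fewer counts on 3D included, and that of all genes tested was 0.0167. At 2-fold or more, 33 members were called, against 5.85% of all genes. MT-TL2, the tRNA for leucine (CUN), was too low to be tested in any line, with counts of 2, 3 and 1 on OVCAR8 plastic and 0 in all 3 OVCAR8 3D libraries, where a count of 0 allows up to 3 counts. The 4 members that rose were the first 4 genes of the H-strand transcript, MT-TF, MT-RNR1, MT-TV and MT-RNR2. Every tested H-strand gene from MT-TL1 onward fell, and on the L-strand transcript all but MT-TP fell.

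MT-TF, the first gene, stood at 168, 254 and 258 CPM on 3D and 32.3, 27.9 and 34.1 CPM on plastic (log2 fold change 2.85, SE 0.23, adjusted p = 2.22e-07). All 3D libraries were above all plastic libraries, as for each of these 4 genes. MT-RNR1, the 12S rRNA of the small ribosomal subunit, was at 3134, 5890 and 5607 CPM on 3D and 792, 778 and 778 CPM on plastic (log2 fold change 2.64, SE 0.23, adjusted p = 6.05e-07). Replicate 4 was the lowest of the 3D libraries and the plastic libraries lay close together. MT-TV was at 87.7, 108 and 109 CPM on 3D and 42.9, 40.7 and 41.0 CPM on plastic (log2 fold change 1.29, SE 0.26, adjusted p = 0.00366). MT-RNR2, the 16S rRNA of the large subunit, was at 1783, 3167 and 2811 CPM on 3D and 1379, 1294 and 1337 CPM on plastic (log2 fold change 0.95, SE 0.18, adjusted p = 0.00204). The fitted changes became smaller in the order of the genes along this stretch. With the close pairs counted as 1 sample each, MT-TV (adjusted p = 0.095) and MT-RNR2 (0.0777) were no longer called, nor were MT-TA, MT-TC, MT-TR and MT-TT among the members that fell.

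Complex I, the NADH dehydrogenase, takes 7 of its subunits from mitochondrial mRNAs, and all 7 fell. MT-ND1, the first mRNA after the rRNAs, was at 483, 289.5 and 288 CPM on 3D and 1201, 881 and 1080 CPM on plastic (log2 fold change -1.58, SE 0.18, adjusted p = 1.69e-05), which was the smallest fall among the mRNAs. MT-ND2 was at 388, 252 and 223 CPM on 3D and 1714, 1803 and 1626 CPM on plastic (log2 fold change -2.58, SE 0.16, adjusted p = 5.27e-09). Replicate 4 was the highest 3D library for both, yet below all plastic libraries. MT-ND3 was at 30.0, 25.3 and 20.5 CPM on 3D and 314, 401 and 298 CPM on plastic (log2 fold change -3.74, SE 0.25, adjusted p = 1.55e-08), the largest fall of an mRNA. MT-ND4L was at 76.8, 59.8 and 53.0 CPM on 3D and 660.3, 646 and 658 CPM on plastic (log2 fold change -3.37, SE 0.25, adjusted p = 6.63e-08). MT-ND4, its overlapping neighbour, was at 345, 302 and 245 CPM on 3D and 3086, 3178 and 2912 CPM on plastic (log2 fold change -3.36, SE 0.14, adjusted p = 7.19e-11). These neighbours differed little in the size of their falls. MT-ND5 was at 118, 157 and 129 CPM on 3D and 728, 814 and 701 CPM on plastic (log2 fold change -2.47, SE 0.18, adjusted p = 4.3e-08). MT-ND6, the one mRNA of the L-strand transcript, was at 83.4, 78.3 and 71.6 CPM on 3D and 268, 304 and 253 CPM on plastic (log2 fold change -1.82, SE 0.20, adjusted p = 1.05e-05). After MT-ND1, it had the smallest fall of the 13.

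MT-CYB, the cytochrome b of complex III, was at 240, 147 and 133 CPM on 3D and 1205, 1240 and 1114 CPM on plastic (log2 fold change -2.77, SE 0.21, adjusted p = 6.7e-08). Complex IV, cytochrome c oxidase, holds MT-CO1, MT-CO2 and MT-CO3 at its core. MT-CO1 was at 941, 901 and 807 CPM on 3D and 4715, 5354 and 4600 CPM on plastic (log2 fold change -2.47, SE 0.12, adjusted p = 1.54e-10). MT-CO2 was at 453, 346 and 308 CPM on 3D and 2025, 2084 and 1925 CPM on plastic (log2 fold change -2.45, SE 0.15, adjusted p = 6.46e-09). MT-CO3 was at 165, 147 and 119.9 CPM on 3D and 1452, 1780 and 1410 CPM on plastic (log2 fold change -3.43, SE 0.16, adjusted p = 1.21e-10). In none of them did a 3D library reach the lowest plastic library, and the fitted fall of MT-CO3 exceeded those of MT-CO1 and MT-CO2, a difference between genes that was not tested. MT-ATP8 and MT-ATP6 code for the membrane part of ATP synthase. MT-ATP8 was at 38.7, 30.1 and 22.9 CPM on 3D and 333, 368 and 328 CPM on plastic (log2 fold change -3.49), given as a description because this fall was known when the set was taken up. MT-ATP6 was at 158, 129 and 105 CPM on 3D and 1324, 1502 and 1248 CPM on plastic (log2 fold change -3.38, SE 0.16, adjusted p = 1.44e-10). Both fell to about the same extent, and share the bases printed above, so the MT-ATP6 test is not independent of the known fall of MT-ATP8.

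**Figure D2:**
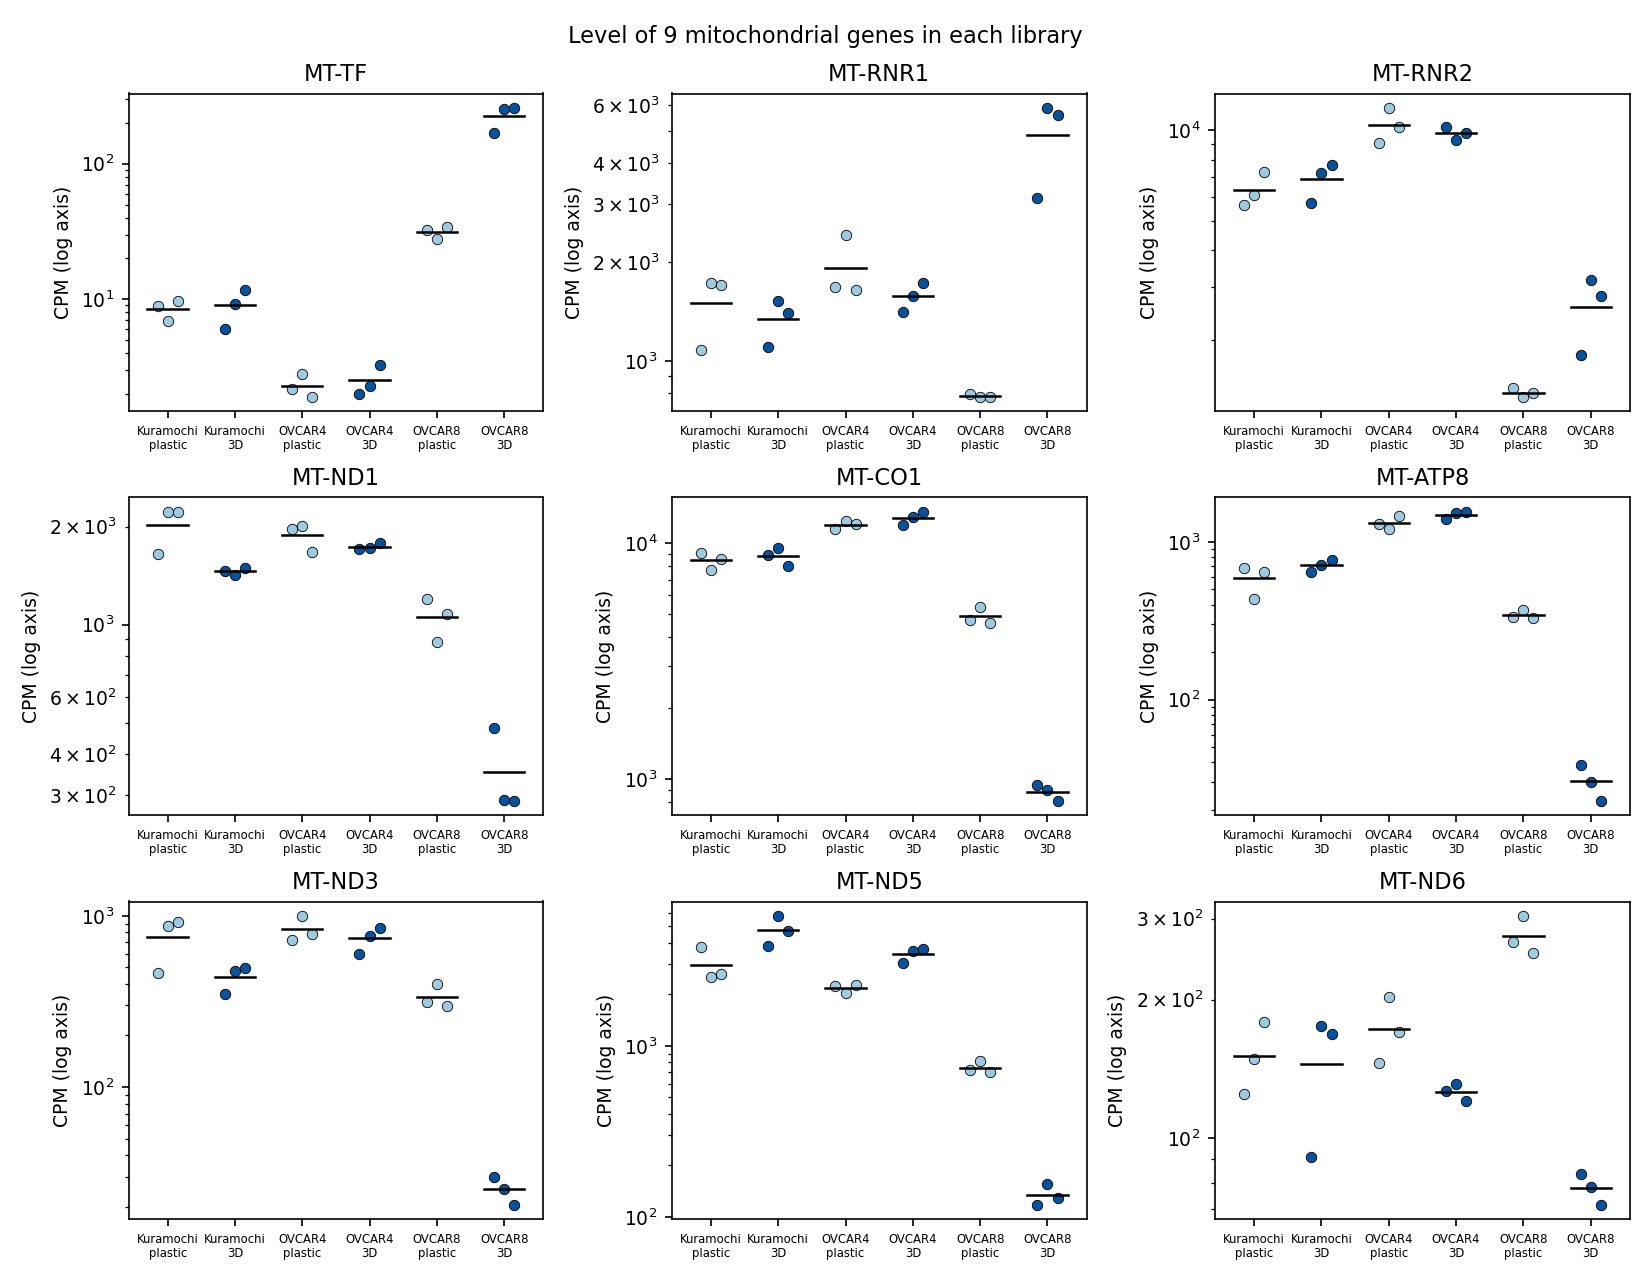
CPM (y axis, log scale) of 9 mitochondrial genes in every library of the 6 groups (x axis), with points for libraries and a bar for the mean of 3. In OVCAR8 the 3D libraries lie above plastic for MT-TF, MT-RNR1 and MT-RNR2 and below it for MT-ND1, MT-CO1, MT-ATP8, MT-ND3, MT-ND5 and MT-ND6; for MT-ND5 they lie above plastic in Kuramochi and OVCAR4.

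The tRNAs after MT-RNR2 are counted at low levels, so their values carry more counting error. MT-TL1, which follows MT-RNR2, was at 5.62, 3.46 and 3.24 CPM on 3D and 20.3, 14.7 and 18.6 CPM on plastic (log2 fold change -2.12, SE 0.28, adjusted p = 7.1e-05). The direction of the OVCAR8 change thus turned at the junction printed above. MT-TI, the isoleucine tRNA, was at 0.57, 0.284 and 0.413 CPM on 3D and 7.37, 4.47 and 6.03 CPM on plastic (log2 fold change -3.81, SE 0.34, adjusted p = 6.29e-07). MT-TM, the methionine tRNA, was at 0.733, 0.232 and 0.475 CPM on 3D and 7.72, 5.06 and 8.08 CPM on plastic (log2 fold change -3.85, SE 0.42, adjusted p = 1.05e-05). MT-TW, the tryptophan tRNA, was at 0.136, 0.129 and 0.145 CPM on 3D and 0.728, 0.46 and 0.721 CPM on plastic (log2 fold change -2.19, SE 0.40, adjusted p = 0.00178). None of these 4 overlapped between the groups. MT-TD, the aspartate tRNA, was at 0.136, 0.129 and 0.103 CPM on 3D and 2.01, 2.30 and 2.19 CPM on plastic (log2 fold change -4.12, SE 0.42, adjusted p = 4.68e-06). MT-TK, the lysine tRNA, was at 0.217, 0.0517 and 0.0827 CPM on 3D and 1.49, 0.854 and 1.15 CPM on plastic (log2 fold change -3.32, SE 0.45, adjusted p = 0.000112). MT-TI and MT-TQ share 3 bases on opposite strands, and without a stated strand setting in the counting their reads might be mixed.

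Further along, MT-TH, the histidine tRNA, had counts of 1, 0 and 0 on 3D and 16, 13 and 19 on plastic (adjusted p = 0.000224). MT-TG, MT-TR and MT-TS2, the tRNAs for glycine, arginine and serine (AGY), had 1 to 3 counts in the 3D group as a whole and at most 11 counts in a plastic library; all 3 were called lower (adjusted p = 0.0058, 0.022 and 0.0023), and no fold is given for these 4 genes because so few counts cannot fix one. MT-TR was not called without 3D replicate 61 (adjusted p = 0.109), plastic replicate 4 (0.078) or plastic replicate 62 (0.104). MT-TT, the threonine tRNA and last gene of the H-strand transcript, was at 0.298, 0.516 and 0.227 CPM on 3D and 0.641, 0.756 and 0.548 CPM on plastic (log2 fold change -0.91, SE 0.28, adjusted p = 0.0469). Its call is the least firm, since it was lost in 20 of 26 alternative analyses (adjusted p = 0.0157 to 0.497 over all of them).

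On the L-strand transcript, MT-TP was at 2.31, 6.66 and 5.99 CPM on 3D and 4.92, 9.40 and 5.37 CPM on plastic (log2 fold change -0.39, SE 0.45, adjusted p = 0.612). Its OVCAR8 groups overlapped. MT-TE, the glutamate tRNA, was at 1.79, 2.53 and 2.79 CPM on 3D and 8.51, 12.3 and 8.83 CPM on plastic (log2 fold change -2.05, SE 0.36, adjusted p = 0.00139). MT-TS1, the serine (UCN) tRNA, was at 0.298, 0.181 and 0.145 CPM on 3D and 1.95, 2.53 and 2.16 CPM on plastic (log2 fold change -3.42, SE 0.50, adjusted p = 0.000249). Both lay lower on 3D in every library. MT-TY, the tyrosine tRNA, was at 0.163, 0.155 and 0.227 CPM on 3D and 1.60, 3.29 and 1.53 CPM on plastic (log2 fold change -3.51, SE 0.67, adjusted p = 0.00264). MT-TC, the cysteine tRNA, was at 0.244, 0.129 and 0.0827 CPM on 3D and 1.08, 2.60 and 0.808 CPM on plastic (log2 fold change -3.30, SE 0.89, adjusted p = 0.0256). Plastic replicate 61 was the highest plastic library for each of this cluster of tRNAs. MT-TN, the asparagine tRNA, was at 0.0543, 0 and 0.124 CPM on 3D and 0.728, 2.46 and 0.663 CPM on plastic (log2 fold change -4.25, SE 0.94, adjusted p = 0.00805). MT-TA, the alanine tRNA, was at 0.163, 0.284 and 0.227 CPM on 3D and 1.25, 3.12 and 1.39 CPM on plastic (log2 fold change -3.06, SE 0.74, adjusted p = 0.0143). MT-TQ, the glutamine tRNA, was at 0.57, 0.336 and 0.475 CPM on 3D and 4.11, 6.77 and 4.18 CPM on plastic (log2 fold change -3.44, SE 0.54, adjusted p = 0.000499). MT-TA and MT-TC were no longer called without 3D replicate 61 (adjusted p = 0.0569 and 0.119), 3D replicate 62 (0.0742 and 0.139) or plastic replicate 61 (0.0652 and 0.109), nor was MT-TC without plastic replicate 4 (0.0514).

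Set against distance along the H-strand transcript, the OVCAR8 log2 fold changes were above 0 up to MT-RNR2, lay between -4.12 and -1.58 from MT-TL1 to MT-CYB among genes with more than 3 counts on 3D, and came to -0.91 at MT-TT. Across the 14 H-strand mRNAs and rRNAs their correlation with distance was r = -0.736 (Spearman rho = -0.609), and across all 27 tested H-strand genes r = -0.601 (rho = -0.474). The 27 include MT-TG, MT-TR, MT-TH and MT-TS2, whose fitted values rest on 3 or fewer counts on 3D. Across the 9 tested L-strand genes it was r = -0.901 (rho = -0.667), with MT-TP, MT-TE and MT-ND6 near the start and the other 6 tRNAs beyond 8 kb. These are descriptions across genes, which come from the same libraries and from shared precursor RNAs and are not independent replicates. The same correlations were 0.255, -0.0564 and 0.552 in Kuramochi and 0.594, 0.157 and -0.511 in OVCAR4, over fold changes that stayed between -0.77 and 0.90 in the former and between -0.77 and 0.67 in the latter.

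**Figure D3:**
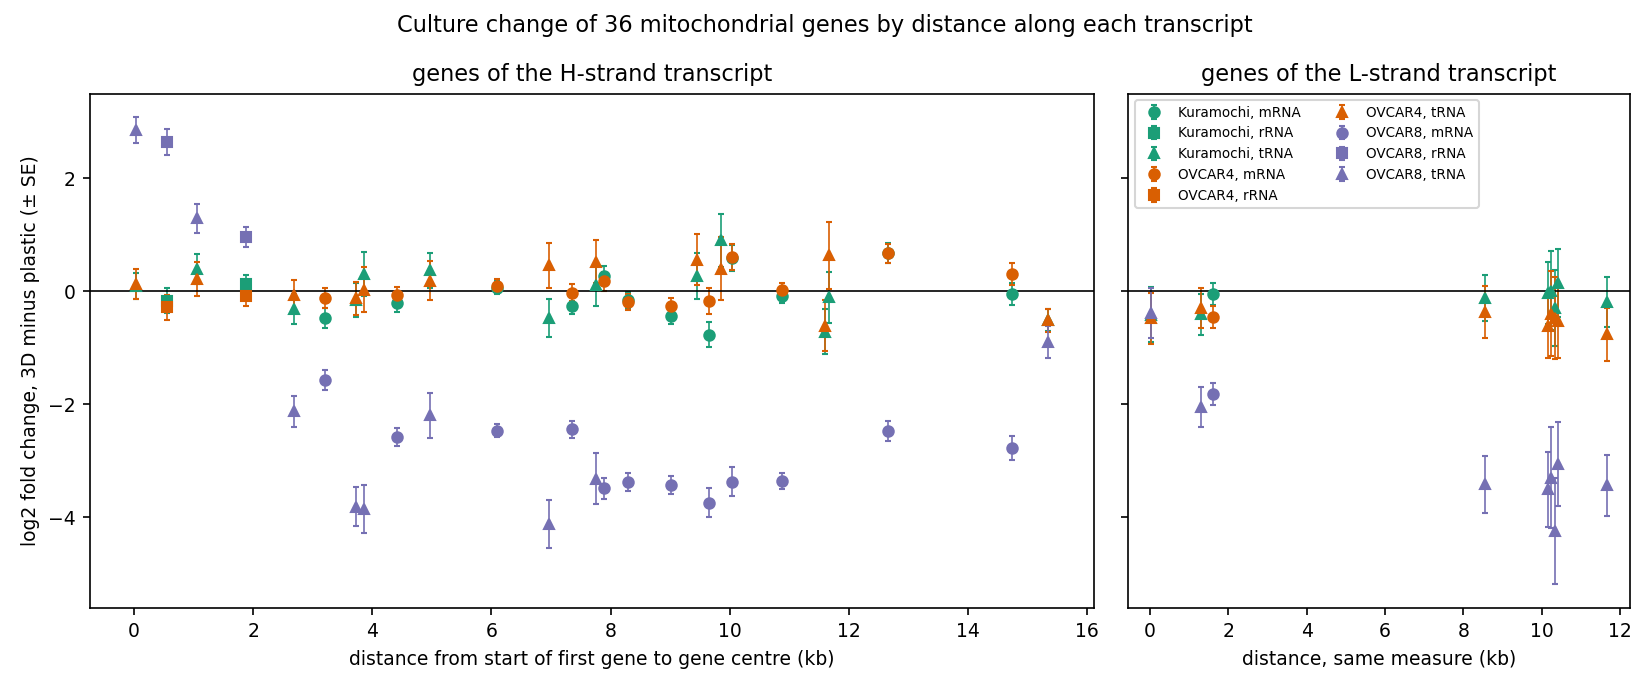
Log2 fold change of 3D over plastic (y axis, ± SE from the edgeR fit) against the distance in kb from the start of the first gene to the centre of each gene (x axis), for the H-strand transcript (left) and the L-strand transcript (right) in 3 lines. In OVCAR8 the first 4 H-strand genes lie above 0 and the later ones below, while those of the other lines lie between -0.77 and 0.90; 4 tRNAs with 3 or fewer counts in OVCAR8 on 3D are not drawn for that line.

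OVCAR8 3D replicate 4 had lower levels of fibroblast genes than replicates 61 and 62, with COL3A1 at 12.4 against 793 and 466 CPM and COL1A2 at 8.33 against 599 and 367 CPM, yet above those on plastic, where COL3A1 was at 0 to 0.115 CPM and COL1A2 at 0. In a fit added after seeing the data, with OVCAR8 3D 61 and 62 and OVCAR4 3D 4 and 6 left out, all 35 called members kept their direction and 18 were called, among them all 13 mRNAs (log2 fold change of MT-TF 2.43, adjusted p = 0.000224; MT-RNR1 2.01, adjusted p = 0.000674). The lone 3D library is assumed in that fit to vary like the other groups. MT-RNR2 then had a log2 fold change of 0.43 (adjusted p = 0.95) and MT-TV one of 1.09 (adjusted p = 0.44). The rRNA counts of replicates 61 and 62 were also above those of replicate 4, and the part of the omental cells' own RNA in this was not tested.

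Within the mitochondrial counts, the ratio of MT-RNR1 to MT-RNR2 counts was 1.76, 1.86 and 1.99 in OVCAR8 on 3D and 0.574, 0.601 and 0.582 on its plastic. In the 12 libraries of Kuramochi and OVCAR4 the same ratio was 0.137 to 0.285. Counts on the rRNAs were 1.40, 3.16 and 3.33 times those on the mRNAs in OVCAR8 3D, 0.102 to 0.116 times on OVCAR8 plastic and 0.173 to 0.233 times elsewhere, so OVCAR8 on 3D was the only group in which rRNA counts exceeded mRNA counts. MT-ND6 had 24.3, 28.1 and 29.2 counts per 1000 counts of the 12 H-strand mRNAs in OVCAR8 3D and 14.1 to 15.2 on its plastic. In Kuramochi and OVCAR4 it had 1.89 to 4.35. The ratio of MT-ND6 counts to those of the H-strand mRNAs was thus different in OVCAR8 already on plastic. It rests on the only L-strand mRNA, in poly(A)-selected libraries counted without a stated strand setting. The balance of transcription between the strands was not tested.

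The make-up of the mRNA pool moved as well. As a percent of the counts of the 13 mRNAs, MT-ND1 went from 5.53 ± 1.06 on OVCAR8 plastic to 11.7 ± 1.83 on 3D and MT-CO1 lay at 25.5 ± 0.769 and 30.1 ± 2.88. MT-ND4 was at 16.0 ± 0.313 on plastic and 10.02 ± 0.464 on 3D. MT-CO3 was at 8.05 ± 0.608 and 4.85 ± 0.248. The groups did not overlap for any of these 4, which describes unequal falls. In the other lines MT-ND5 made up more of the pool on 3D, 12.2 ± 1.77% against 7.45 ± 2.12% in Kuramochi and 5.65 ± 0.245% against 3.65 ± 0.481% in OVCAR4. A 95% Wilson interval of these shares in a single library extended by at most 0.273 percentage points.

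**Figure D4:**
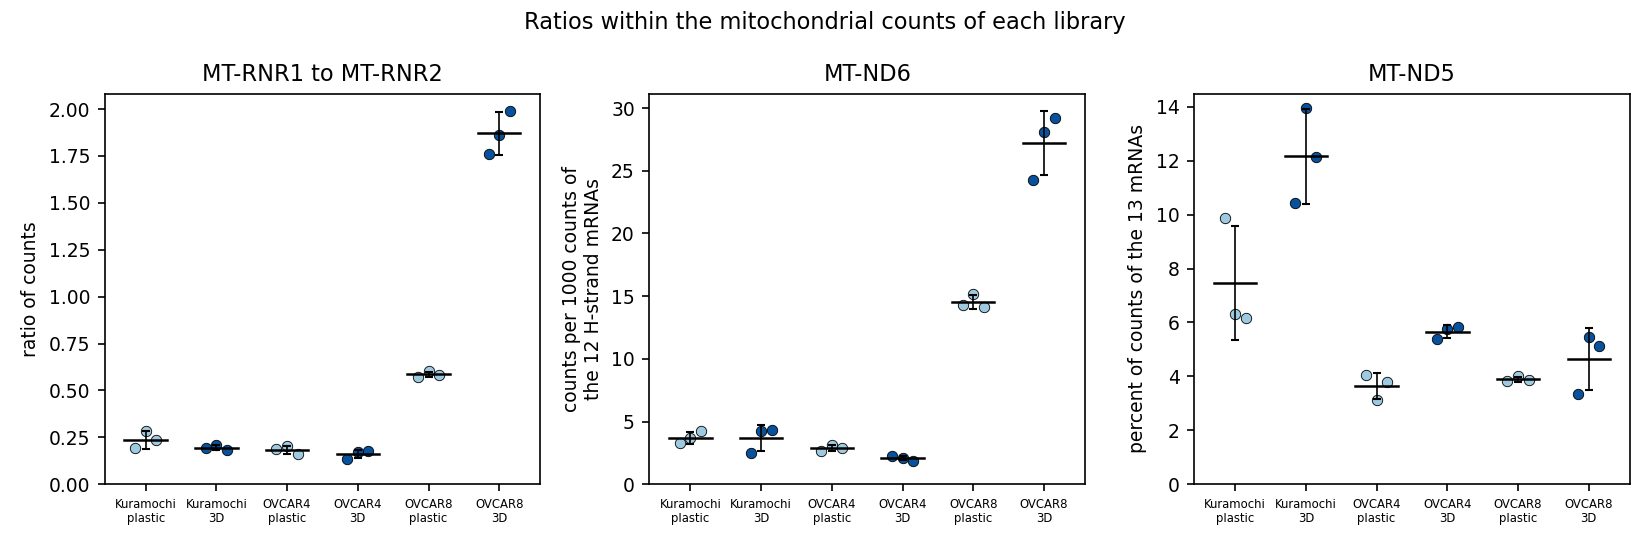
Ratio of MT-RNR1 to MT-RNR2 counts, MT-ND6 counts per 1000 counts of the 12 H-strand mRNAs, and percent of mRNA counts on MT-ND5 (y axes) in the 6 groups (x axis). Points are libraries, bars means and whiskers 1 SD (n = 3); the first 2 ratios are highest in OVCAR8 on 3D (1.76 to 1.99, and 24.3 to 29.2), and the MT-ND5 share is higher on 3D than on plastic in every library of Kuramochi and OVCAR4.

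In Kuramochi, 3 of the 36 members tested were called between 3D and plastic, 1 higher and 2 lower, where 27.3% of all genes tested were called (14.4% higher, 12.8% lower). The median log2 fold change of the members was -0.097, that of all genes 0.0188, and none was called at 2-fold or more (8.16% of all genes were). The numbers of this line pair its samples by their correlation, and with the replicate as a block 5 members were called, the same 3 with MT-ND1 (adjusted p = 0.0338) and MT-TT (adjusted p = 0.0355) added. Without 3D replicate 2 there were 3 calls, all higher, and MT-ND5 was the only one of them among the 3 above. Without plastic replicate 4 no member was called, without plastic replicate 8 only 1 was, without plastic replicate 2 there were 7 and without OVCAR8 3D replicate 61, which shares the fit, 5. In a fit of this line alone the count was 0, where 2095 of 18643 genes tested were called. Over all genes, 3030 of 22668, 4306 of 22685 and 7969 of 22683 were called without plastic replicates 4, 8 and 2.

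MT-ND5, the member that rose, was at 3822, 5760 and 4724 CPM on 3D and 3811, 2528 and 2627 CPM on plastic (log2 fold change 0.67, SE 0.17, adjusted p = 0.00763). Its lowest 3D library, replicate 2, was just above its highest plastic library, also replicate 2. MT-ND3 was at 347, 475 and 496 CPM on 3D and 465, 867 and 915 CPM on plastic (log2 fold change -0.77, SE 0.23, adjusted p = 0.0181). The groups overlapped, as plastic replicate 2 lay within the 3D range, and the call was lost in 4 of 26 alternative analyses, those without 3D replicate 2 (adjusted p = 0.0685), plastic replicate 4 (0.0874) or plastic replicate 8 (0.0758) among them. MT-CO3 was at 3269, 3266 and 3248 CPM on 3D and 3715, 4692 and 4843 CPM on plastic (log2 fold change -0.44, SE 0.14, adjusted p = 0.0314). All 3D libraries lay below plastic, but the call was lost in 7 of 26 alternative analyses, among them those without any 1 of the line's libraries (adjusted p = 0.0585, 0.072 and 0.0855 without 3D replicates 2, 4 and 8, 0.105 and 0.094 without plastic replicates 4 and 8) other than plastic replicate 2. MT-ND1 was at 1464, 1415 and 1491 CPM on 3D and 1651, 2217 and 2209 CPM on plastic (log2 fold change -0.48, SE 0.18, adjusted p = 0.0524). MT-ND4L was at 871, 1107 and 1270 CPM on 3D and 1001, 441 and 726 CPM on plastic (log2 fold change 0.58, SE 0.23, adjusted p = 0.0676). Plastic replicate 4 was the lowest library of MT-ND4L, and plastic replicate 2 overlapped with 3D. MT-TT stood at 11.9, 13.2 and 10.7 CPM on 3D and 14.9, 19.2 and 16.5 CPM on plastic (log2 fold change -0.50, SE 0.20, adjusted p = 0.0636).

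The other 8 mRNAs of Kuramochi had log2 fold changes between -0.26 and 0.27, none called. MT-ND2 was at 1864, 1962 and 2056 CPM on 3D and 2078, 2307 and 2446 CPM on plastic and MT-ND4 at 4758, 5342 and 5800 CPM on 3D and 5087, 5506 and 6227 CPM on plastic. MT-ND6 was at 91.1, 176 and 168 CPM on 3D and 125, 148 and 179 CPM on plastic, lowest in 3D replicate 2. Of the complex III and IV genes, MT-CYB was at 2752, 3455 and 2882 CPM on 3D and 2513, 3691 and 3161 CPM on plastic. MT-CO1 was at 8920, 9528 and 8018 CPM on 3D and 9121, 7701 and 8555 CPM on plastic, and MT-CO2 at 5287, 5489 and 5294 CPM on 3D and 5457, 6831 and 6902 CPM on plastic. The groups overlapped for all of these except MT-ND2. MT-ATP6 was at 2594, 2608 and 2735 CPM on 3D and 2822, 2742 and 3271 CPM on plastic, with 3D below plastic in every library, and MT-ATP8 at 645, 713 and 772 CPM on 3D and 685, 435 and 647 CPM on plastic. MT-RNR1 was at 1099, 1519 and 1398 CPM on 3D and 1080, 1730 and 1697 CPM on plastic (log2 fold change -0.17, SE 0.22, adjusted p = 0.614). MT-RNR2 was at 5710, 7230 and 7668 CPM on 3D and 5646, 6070 and 7266 CPM on plastic (log2 fold change 0.12, SE 0.17, adjusted p = 0.654). Both rRNAs overlapped between the groups.

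In OVCAR4, 1 of the 36 members tested was called, again MT-ND5 and again higher, where 27.1% of all genes were called (15.2% higher, 11.9% lower). The median log2 fold change was -0.0841 for the members and 0.0441 for all genes, and no member was called at 2-fold or more (8.14% of all genes were). MT-ND5 was at 3044, 3610 and 3711 CPM on 3D and 2234, 2034 and 2265 CPM on plastic (log2 fold change 0.67, SE 0.17, adjusted p = 0.00873). All 3D libraries exceeded all plastic ones. The call was lost with the close pairs counted as 1 sample (adjusted p = 0.0593), without OVCAR4 plastic replicate 4 (0.0521) and with 3D replicate 42 as the only 3D library of this line (0.37). Kuramochi and OVCAR4 share no library, so their MT-ND5 values come from separate samples, within a fit that shares the estimate of spread.

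MT-ND4L, upstream of MT-ND5 on the same transcript, was at 1873, 1892 and 1779 CPM on 3D and 1353, 887 and 1423 CPM on plastic (log2 fold change 0.60, SE 0.23, adjusted p = 0.0615), without overlap. MT-ND6, on the opposite strand from MT-ND5, was at 127, 131 and 120.4 CPM on 3D and 145, 202 and 170.4 CPM on plastic (log2 fold change -0.45, SE 0.19, adjusted p = 0.0887), again without overlap but in the other direction. Neither passed the test. MT-CO3 was at 7149, 7303 and 7506 CPM on 3D and 7666, 10280 and 8420 CPM on plastic and MT-ND2 at 2913, 3042 and 3030 CPM on 3D and 3189, 3195 and 3094 CPM on plastic, the 2 other mRNAs with no overlap. MT-CYB was at 4002, 5410 and 5422 CPM on 3D and 3502, 4429 and 4099 CPM on plastic. MT-ND1 was at 1700, 1719 and 1784 CPM on 3D and 1960, 2001 and 1676 CPM on plastic, and MT-ND3 at 600.5, 767 and 845 CPM on 3D and 722, 998 and 778 CPM on plastic. Their groups overlapped, with plastic replicate 4 highest for MT-ND1 and MT-ND3. MT-ND4 was at 9605, 10750 and 10410 CPM on 3D and 9550, 10730 and 10250 CPM on plastic. MT-CO1 was at 11930, 12880 and 13570 CPM on 3D and 11480, 12440 and 12040 CPM on plastic, and MT-CO2 at 6610, 7197 and 7342 CPM on 3D and 6164, 8591 and 6812 CPM on plastic. These 3 abundant mRNAs had fitted changes of 0.01, 0.09 and -0.03. MT-ATP8 was at 1398, 1517 and 1550 CPM on 3D and 1299, 1208 and 1451 CPM on plastic, and MT-ATP6 at 5717, 6567 and 6587 CPM on 3D and 6103, 8384 and 7101 CPM on plastic. MT-RNR1 was at 1404, 1581 and 1732 CPM on 3D and 1683, 2414 and 1649 CPM on plastic (log2 fold change -0.28, SE 0.22, adjusted p = 0.354). MT-RNR2 was at 10260, 9263 and 9833 CPM on 3D and 9110, 11890 and 10260 CPM on plastic (log2 fold change -0.09, SE 0.17, adjusted p = 0.738). In both rRNAs the groups overlapped and plastic replicate 4 was the highest library.

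None of the 21 tRNAs tested was called in Kuramochi or OVCAR4 (edgeR), with fitted changes from -0.72 to 0.90 and from -0.77 to 0.63. At an unadjusted p under 0.05 there were 1 and 1. MT-TT was lower on 3D in every library of both lines, at 3.69, 2.96 and 3.51 CPM on 3D and 4.73, 5.49 and 4.31 CPM on plastic in OVCAR4 (log2 fold change -0.51, SE 0.21, adjusted p = 0.07). MT-TF, which rose in OVCAR8, was at 5.98, 9.27 and 11.8 CPM on 3D and 8.85, 6.86 and 9.75 CPM on plastic in Kuramochi. In OVCAR4 it was at 2.01, 2.29 and 3.25 CPM on 3D and 2.19, 2.80 and 1.91 CPM on plastic. Neither line separated the groups for this gene.

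The culture response itself differed between the lines for 29 of the 36 members by the test of the interaction of culture and line (edgeR F-test over both differences), where 6.17% of all genes were called. These were all 13 mRNAs, both rRNAs and 14 tRNAs. Between OVCAR8 and Kuramochi 28 responses differed (5.71% of all genes, 2.99% higher and 2.72% lower), 2 higher and 26 lower in OVCAR8, and between OVCAR8 and OVCAR4 27 did (4.04%, 2.09% higher and 1.94% lower), 3 higher and 24 lower. Between OVCAR4 and Kuramochi no response differed by edgeR (0.799% of all genes), and 0 did so at an unadjusted p under 0.05. For MT-RNR1 the response in OVCAR8 exceeded that in Kuramochi by 2.81 (SE 0.32, adjusted p = 2.72e-05) on the log2 scale. For MT-ND4 it was lower by a difference of -3.28 (SE 0.19, adjusted p = 1.5e-08). The 2 tests that compare OVCAR8 with another line share the OVCAR8 libraries. MT-TV, MT-TT, MT-TP, MT-TE, MT-TA, MT-TN and MT-TC were the 7 members with no call in the interaction.

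On plastic, the lines also differed in their mitochondrial transcripts before any 3D culture. Per kb of gene length, the mean level on Kuramochi plastic was highest for MT-CO2 (9352 CPM per kb), then MT-CO3 (5633) and MT-CO1 (5486), and lowest among mRNAs for MT-ND6 (287). The libraries of MT-CO3 and MT-CO1 overlapped. On OVCAR4 plastic MT-CO3 (11210), MT-ATP6 (10570) and MT-CO2 (10510) led, with libraries that overlapped. Among the mRNAs and rRNAs on OVCAR8 plastic, MT-CO1 (3171) and MT-CO2 (2940) led, and MT-ND5 (413) was last, below MT-ND6 (524). On OVCAR8 3D the order of the mRNAs and rRNAs began with MT-RNR1 (5112) and MT-RNR2 (1660), ahead of MT-CO1 (573). It ended with MT-ND5 (74.2) and MT-ND3 (73.1). Of the tRNAs, left out of this order, MT-TF (3191) and MT-TV (1472) also lay above MT-CO1. In all 4 of these orders levels are per length, and the differences between neighbours were not tested.

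OVCAR8 was lower than Kuramochi on plastic for 16 members and higher for 7, of 36 (67.7% of all genes were called in that comparison, 35.5% lower and 32.2% higher), and lower than OVCAR4 for 15 and higher for 9 (68.9%, 35.3% lower and 33.6% higher). Pooled over the members, shares of this size are near those of all genes, but the calls were uneven by class. Of the 13 mRNAs, 11 were lower and 1 higher than in Kuramochi, and 12 lower and 1 higher than in OVCAR4. Both rRNAs were lower in both comparisons. Of the 21 tRNAs tested, 3 were lower and 6 higher against Kuramochi, and 1 lower and 8 higher against OVCAR4. The split by class was not tested. Of the mRNAs, MT-ND6 alone was higher in OVCAR8 in both comparisons, by a log2 difference of 0.87 (SE 0.19, adjusted p = 0.000672) against Kuramochi and 0.67 (SE 0.19, adjusted p = 0.00503) against OVCAR4. MT-RNR2 showed a difference of -2.24 (SE 0.18, adjusted p = 4.35e-09) against Kuramochi, and MT-ND5 one of -2.00 (SE 0.17, adjusted p = 1.14e-08). MT-TF and MT-TV, the tRNAs ahead of each rRNA, were higher in OVCAR8 already on plastic. For MT-TF the difference was 1.89 (SE 0.23, adjusted p = 9.02e-07) against Kuramochi, and for MT-TV it was 2.26 (SE 0.27, adjusted p = 7.78e-07). MT-TT went the other way, with -4.70 (SE 0.24, adjusted p = 1.16e-11).

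OVCAR4 differed from Kuramochi on plastic in 20 members, 10 higher and 10 lower (61.7% of all genes were called, 30.1% higher and 31.6% lower). Of its mRNAs, 7 were higher and MT-ND5 was lower, by -0.46 (SE 0.17, adjusted p = 0.0254). MT-ATP6 showed the largest difference among the mRNAs, 1.29 (SE 0.15, adjusted p = 6.45e-07), followed by MT-ATP8 with 1.16 (SE 0.18, adjusted p = 1.45e-05). Among the tRNAs MT-TD had -2.12 (SE 0.38, adjusted p = 8.12e-05) and MT-TP 1.42 (SE 0.47, adjusted p = 0.0138). The 3 plastic comparisons share their control libraries in pairs.

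The nuclear genome holds old copies of mitochondrial genes, and reads from either place can be counted for the other. Of the 75-base windows of the mitochondrial chromosome, 2383 of 16495 (14.4%) were found without a mismatch on a nuclear chromosome of GRCh38. The share was 36.6% in MT-CO1, 34.4% in MT-ND2, 28.4% in MT-RNR1 and 170 of 607 windows in MT-ATP6, but 3.37% in MT-RNR2 and 0 in MT-ATP8, MT-ND3, MT-ND4L, MT-ND4 and MT-CYB. These last 5 had no exact match of that length, but shorter reads and reads with mismatches were not searched. Copies named after them still had counts in OVCAR8 plastic replicates 4, 61 and 62. These were 1544, 1507 and 1456 for MTND4P12, 949, 832 and 924 for MTCYBP18, and 192, 157 and 203 for MTATP8P1. Of 404 annotated nuclear copies, 21 passed the filter on low counts. In OVCAR8 18 of them fell and none rose (edgeR), where 3.32% of all genes fell and 7.51% rose. Their median log2 fold change in OVCAR8 was -2.66. In Kuramochi 2 rose and 1 fell, where 14.4% of all genes rose and 12.8% fell, and in OVCAR4 1 rose, where 15.2% of all genes did.

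The named copies fell in OVCAR8 by amounts near those of the genes they resemble. MTCO1P12 went from 1090 CPM on OVCAR8 plastic to 198 CPM on 3D (log2 fold change -2.46, SE 0.12, adjusted p = 1.21e-10). MTND2P28 went from 653 to 108 CPM (log2 fold change -2.59, SE 0.19, adjusted p = 4.7e-08), and MTATP6P1 from 311 to 31.4 CPM (log2 fold change -3.31, SE 0.16, adjusted p = 1.98e-10). The OVCAR8 log2 fold changes of the remaining named copies were -3.39 for MTCO3P12, -2.42 for MTCO2P12, -1.71 for MTND1P23, -3.19 for MTATP8P1, -3.44 for MTND4P12, -2.66 for MTND5P11, -1.76 for MTND6P4, -2.76 for MTCYBP18, -2.46 for MTCO1P40 and -2.70 for MTCO2P2, all called. MTND1P23, like MT-ND1 among the mRNAs, had the smallest fitted fall of them. MTND5P11 rose in Kuramochi (0.56, adjusted p = 0.0389) and in OVCAR4 (0.69, adjusted p = 0.016), as MT-ND5 did, and MTATP8P1 rose in Kuramochi (0.64, adjusted p = 0.018) where MTND1P23 fell (-0.78, adjusted p = 0.0188). MTATP8P2 had 1, 1 and 0 counts on OVCAR8 3D and 47, 35 and 27 on plastic, MTND4P24 had no count on OVCAR8 3D, and MTCO1P42 had counts in Kuramochi alone. Whether reads of a copy come from the nucleus or the mitochondrion was not tested.

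**Figure D5:**
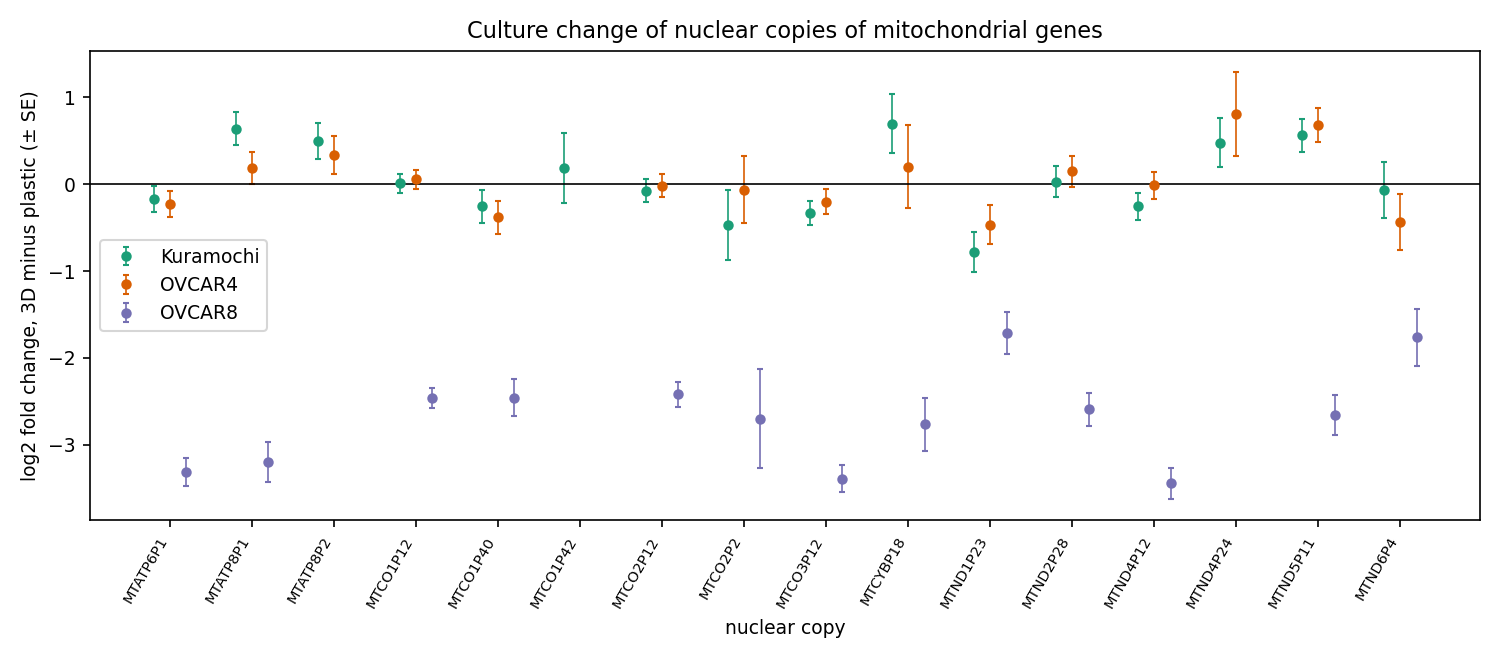
Log2 fold change of 3D over plastic (y axis, ± SE from the edgeR fit) of the 16 nuclear copies with a mean of 1 CPM or more in some group (x axis), by line. In OVCAR8 the copies lie between -1.71 and -3.44, while in Kuramochi and OVCAR4 they lie within 1 of 0; MTATP8P2, MTND4P24 and MTCO1P42 are not drawn for OVCAR8, nor MTCO1P42 for OVCAR4, for lack of counts.

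The respiratory complexes join mitochondrial subunits to others coded in the nucleus. The calls of the nuclear subunits followed a different pattern across lines. Of the 37 nuclear complex I subunits listed, 35 fell and none rose in Kuramochi (12.8% of all genes fell), 26 fell in OVCAR4 (11.9%) and 2 fell in OVCAR8 (3.32%), with medians of -0.711, -0.532 and -0.22. In the same order of lines, NDUFA6 had log2 fold changes of -0.75, -0.70 and -0.56, and NDUFA2 of -0.82, -0.69 and -0.50, and these were the 2 called in OVCAR8. NDUFAB1 (-0.79 and -0.77) and NDUFB2 (-0.94 and -0.50) fell in Kuramochi and OVCAR4. Of 9 complex III subunits, 8 fell in Kuramochi, 6 in OVCAR4 and none in OVCAR8 (edgeR), with medians of -0.793, -0.56 and -0.245. CYC1, the cytochrome c1, had -0.99, -0.83 and -0.26, and UQCRFS1, the Rieske protein, had -0.79, -0.70 and -0.39. UQCRB (-0.70 and -0.40) and UQCRQ (-0.87 and -0.56) fell in the first 2 lines too.

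All 11 nuclear complex IV subunits listed fell in Kuramochi, 10 fell in OVCAR4 and none in OVCAR8 (medians -0.853, -0.549 and -0.29). Of all genes tested, 12.8%, 11.9% and 3.32% fell in the 3 lines. COX6C had -0.72, -0.53 and -0.35, and NDUFA4 -0.79, -0.55 and -0.29. COX7A2 and COX8A fell in Kuramochi (-0.70 and -0.98) and OVCAR4 (-0.47 and -0.72). Of 17 complex V subunits, 17 fell in each of these lines and 3 in OVCAR8 (medians -0.767, -0.62 and -0.299). ATP5F1B, the catalytic beta subunit, had -0.56, -0.62 and -0.46, and ATP5F1A, the alpha subunit, -0.38, -0.40 and -0.43. ATP5PB was the last of the 3 called in OVCAR8 (-0.48), and ATP5F1C fell in Kuramochi and OVCAR4 (-0.58 and -0.62). In Kuramochi and OVCAR4, then, most nuclear subunits were called lower where 3 and 1 mitochondrial members were called. In OVCAR8 most mitochondrial members and few nuclear subunits were called, though the medians of the subunits were below 0 there too. Counts of calls depend on the fit. In separate fits per line, 1035 genes were called lower in Kuramochi, 2861 in OVCAR4 and 2347 in OVCAR8. How the mitochondrial members and the nuclear subunits differ between lines was not tested as a set.

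Of 12 genes for mitochondrial transcription and DNA maintenance, 2 fell in Kuramochi, 3 in OVCAR4 and none in OVCAR8 (edgeR), where 12.8%, 11.9% and 3.32% of all genes fell. SSBP1, which binds single-stranded mitochondrial DNA, had -0.41, -0.57 and -0.27, and TWNK, the helicase, -0.48, -0.49 and -0.22. TFB2M and MGME1 had no call in any line. In OVCAR8, POLRMT (log2 fold change 0.14, SE 0.16, adjusted p = 0.619) and MTERF1 (log2 fold change -0.20, SE 0.19, adjusted p = 0.519), named after their values were seen, had no call. Of 21 genes for RNA processing, polyadenylation and turnover, 1 rose and 4 fell in Kuramochi, 5 fell in OVCAR4 and 1 rose in OVCAR8. Of all genes 14.4% rose and 12.8% fell in Kuramochi, 11.9% fell in OVCAR4 and 7.51% rose in OVCAR8. SLIRP, a partner of LRPPRC in keeping mitochondrial mRNAs stable, fell in Kuramochi (-0.96) and OVCAR4 (-0.97). HSD17B10, a subunit of the mitochondrial RNase P, fell in both (-0.51 and -0.60), PTCD1 fell in Kuramochi (-0.33) and GRSF1 in OVCAR4 (-0.32). The gene that rose in OVCAR8 was PNPT1, the polynucleotide phosphorylase of mitochondrial RNA turnover, with 83.8 CPM on plastic and 160 CPM on 3D (log2 fold change 0.93, SE 0.21, adjusted p = 0.00823), also named after its value was seen.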

How the data were processed

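RNA-seq was carried out on 18 libraries of 3 ovarian cancer cell lines on a 3D omentum culture or plastic. Per the submitters' notes and methods, the authors made libraries with a stranded mRNA kit, trimmed reads with Trimmomatic 0.33, aligned them to GRCh38 with TopHat2 2.1.0 and counted reads per GENCODE 25 gene with HTSeq; the deposited values are raw counts, 1 file per sample. The strand setting and the treatment of reads with several matches are not given in the sources used here. TopHat2 reports reads that match in several places, and how these were counted affects genes with nuclear copies.

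Samples were grouped by line and culture from their labels. Groups were compared with edgeR 4.0.16 (quasi-likelihood, robust; R 4.3.3, limma 3.58.1) on all 18 libraries as 6 groups, with TMM factors (0.944 to 1.12) and filterByExpr (minimum count 10, minimum total 15). P-values were adjusted by Benjamini-Hochberg over 22023 genes and called under 0.05, and SE is the log2 fold change divided by the root of F. The same-numbered Kuramochi samples deviated together (correlations 0.169, 0.125 and 0.282), so a fit with the replicate as a block is given for that line. Alternatives tried were no filter, RLE factors, DESeq2 1.42.0, a separate fit per line, close pairs as 1 sample, a 2-fold minimum and leaving out each library. The script was tested on simulated data. Members, gene lists and tests were chosen with earlier results of these data known. Values per library were given for the mRNAs and rRNAs and for called tRNAs at 1 CPM or more in some group, nuclear copies were named at 1 CPM or more in some group, and up to 4 genes of each nuclear list were named by the smallest of their largest adjusted p over the 3 lines.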

Additional observations from a re-analysis of the deposited data

Results flagged for a closer look

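The following members had culture responses that differed between the lines in the edgeR test of the interaction of culture and line, and the value given is that test's adjusted p. Among the first 4 H-strand genes these were MT-TF (3.87e-05), MT-RNR1 (1.48e-05) and MT-RNR2 (0.0291). Among the complex I mRNAs the values were 0.00375 for MT-ND1, 8.67e-07 for MT-ND2, 3.82e-06 for MT-ND3, 5.06e-07 for MT-ND4L, 6.04e-09 for MT-ND4, 1.42e-07 for MT-ND5 and 0.00169 for MT-ND6. For complex III and IV they were 2.61e-06 for MT-CYB, 1.84e-08 for MT-CO1, 1.15e-06 for MT-CO2 and 2.42e-08 for MT-CO3. For ATP synthase the value was 2.31e-08 for MT-ATP6. That of MT-ATP8, 2.66e-08, is no independent test, since its fall in OVCAR8 was known when the set was taken up. MT-ATP6 shares bases with MT-ATP8, so its value is not independent of that fall. Of the H-strand tRNAs, MT-TL1 had 0.00472, MT-TI 5.34e-05, MT-TM 0.000285, MT-TW 0.00828, MT-TD 0.000227, MT-TK 0.00132, MT-TG 0.0181, MT-TR 0.0364, MT-TH 0.00974 and MT-TS2 0.0135. Of the L-strand tRNAs, MT-TQ had 0.0177, MT-TY 0.0416 and MT-TS1 0.00822.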

How the results depend on the processing

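No called change turned its direction in any alternative of the culture comparisons. In Kuramochi, where 3 members were called, the count was 5 with no filter on low counts, 5 with the replicate block, 0 in a separate fit per line, 6 with DESeq2, 0 at 2-fold or more, and 0 to 7 with each library left out in turn; without 3D replicate 2 it was 3, all higher, against 1 higher and 2 lower. In OVCAR4, where 1 was called, it was 4 with no filter, 3 with the replicate block, 3 in a separate fit, 0 with close pairs as 1 sample, 2 with DESeq2, 0 at 2-fold or more, 0 with OVCAR8 3D 61 and 62 and OVCAR4 3D 4 and 6 left out (an alternative chosen after seeing the data), and 0 to 2 with each library left out. The cause of these moves was not tested. Calls over all genes moved with the fit too. Kuramochi had 6011 of 22023 genes called in the main fit and 2095 of 18643 in a separate fit. OVCAR4 had 5962 of 22023 in the main fit and 1830 of 22376 with close pairs as 1 sample. OVCAR8 had 2385 of 22023 in the main fit. Close pairs as 1 sample gave 440 of 22376 there, and a separate fit 5585 of 18790. With 1 library left out it was 3030 to 7969 in Kuramochi, 2725 to 7060 in OVCAR4 and 894 to 4352 in OVCAR8. In OVCAR8 the count of 35 went to 18 with those 4 libraries left out, which leaves 1 library on 3D, to 29 (2 higher, 27 lower) with close pairs as 1 sample, to 31 in a separate fit and to 32 to 35 with each library left out. With the same 4 libraries left out, responses called fell to 15 for OVCAR8 against Kuramochi, 14 for OVCAR8 against OVCAR4 and 14 in the interaction. Close pairs as 1 sample gave 17 for OVCAR8 against OVCAR4 and 18 in the interaction. Of all genes, that setting called 106 and 225 of 22376, against 889 and 1358 of 22023 in the main fit. Leaving out each library gave 24 to 32 for OVCAR8 against Kuramochi, 23 to 31 against OVCAR4, 0 for OVCAR4 against Kuramochi and 23 to 32 in the interaction. On plastic it gave 17 to 21, 20 to 23 and 23 to 25 for OVCAR4 against Kuramochi, OVCAR8 against Kuramochi and OVCAR8 against OVCAR4. The 3D to plastic ratio of the mitochondrial share was 0.949 to 1.03, 0.979 to 1.06 and 0.503 to 0.616 in Kuramochi, OVCAR4 and OVCAR8. In OVCAR4 the samples of replicate 42 deviated together (correlation 0.325, against -0.183 and -0.208 with the other plastic libraries). Those of replicates 4 and 6 (0.0899 and 0.145) were not set apart from 4 with 6 (0.154 and 0.174). Same-numbered samples did not all pair in OVCAR8 (0.0952, 0.106 and -0.0841), where the replicate block gave 35 calls. Of the 35 OVCAR8 members called, 18 were called in every alternative. Low counts limit the later tRNAs of OVCAR8, and poly(A) selection limits what rRNA and tRNA counts stand for.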

Other observations

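The 8 tRNAs of the L-strand transcript took 0.000789% of counts in Kuramochi 3D replicate 2 and 0.000894% in Kuramochi plastic replicate 2, against 0.00254 to 0.00333% in the other 4 libraries of that line. MT-TN, for example, was at 0.277 and 0.351 CPM in the libraries of replicate 2 and at 1.47 to 2.33 CPM in the others, and MT-TC at 0.277 and 0.146 against 2.01 to 2.66 CPM. The same tRNAs took 0.00431% in OVCAR8 plastic replicate 61 and 0.00241 and 0.00249% in plastic 4 and 62. The H-strand tRNAs of these libraries did not stand apart in the same way, with 0.00438 to 0.00691% in Kuramochi and 0.00997 to 0.0117% on OVCAR8 plastic.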
